A study of Mus musculus with 15 samples.

Results

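The phagocyte NADPH oxidase and enzymes that remove superoxide and hydrogen peroxide were followed through 8 genes, chosen by symbol from the counts table. They were *Cybb*, *Cyba*, *Ncf1*, *Ncf4* and *Rac2* of the oxidase, and *Sod1*, *Sod2* and *Cat* of the removal side, 8 of 78317 gene identifiers. The samples were 15 RNA-seq libraries of MH-S cells, an SV40-transformed mouse alveolar macrophage line, taken from wells of the same passage after 24 h. Each of 5 groups had 3 libraries. M0 cells stayed in medium, M1 cells received LPS at 1 µg/mL with IFN-γ at 20 ng/mL, M2 cells received IL-4 at 20 ng/mL, and 2 groups received calcium phosphate (CaP) or silica (SiO2) microrods at 0.1 mg/mL. The wells of a microrod group held separately prepared particle batches, so p-values cover the spread between wells and batches of 1 cell line and not between animals.

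In phagocytes the oxidase is assembled on the phagosome or plasma membrane. gp91phox (*Cybb*) carries the electrons and is held in the membrane by p22phox (*Cyba*), while p47phox (*Ncf1*), p40phox (*Ncf4*) and p67phox come from the cytosol with the GTPase Rac2 when the cell is stimulated. Superoxide dismutases, cytosolic *Sod1* and mitochondrial *Sod2*, turn superoxide in their own compartments into hydrogen peroxide. Catalase (*Cat*) splits the peroxide into water and oxygen. Whether these enzymes met superoxide made by this oxidase was not measured.

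Total counts ranged from 8459643 to 68750050 per library, and all 8 genes passed the filter on low counts among 16654 genes tested. Of 12 macrophage markers, 6 reached 5 CPM in at least 1 library, among them *Ptprc*, *Csf1r*, *Adgre1*, *Cd68* and *Lyz2*. The alveolar macrophage markers *Siglecf*, *Chil3* and *Car4* were at or near 0, with at most 0.478 CPM, and *Pparg* reached at most 0.658 CPM. *Itgax* was low in every library, at 1.57 to 4.93 CPM, *Marco* reached 2.82 CPM in M1, and *Mrc1* reached 30.0 CPM in M2 and at most 2.2 CPM in the other groups. The neutrophil list, the other likely source of oxidase RNA, summed to at most 1.03 CPM, and the B cell, T cell, epithelium, fibroblast and endothelium lists each to at most 1.71 CPM. In bulk RNA, fewer cells expressing a gene and less RNA per cell cannot be told apart.

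Proximal promoters are shown for *Cybb*, which differed most in M2, and for *Ncf1* and *Sod2*, which were higher in M1. These were the only searched promoters that held a marked match. *Sod1*, lower in M1 and M2, held none and is not shown. Promoters were taken from a RefSeq table in which 6 of the 8 genes were matched (build GRCm38.p6, whereas the counts were made on another build), and each is given as the 250 bases before the gene start, 5′ to 3′ on the gene's strand. *Rac2*, also higher in M1, and *Ncf4* were not matched, so their promoters were not searched. Capitals mark every match, on either strand, to the interferon regulatory factor core AANNGAAA or the interferon-γ-activated site TTCNNNGAA.
*Cybb* (chrX:9469325-9469574 on the minus strand): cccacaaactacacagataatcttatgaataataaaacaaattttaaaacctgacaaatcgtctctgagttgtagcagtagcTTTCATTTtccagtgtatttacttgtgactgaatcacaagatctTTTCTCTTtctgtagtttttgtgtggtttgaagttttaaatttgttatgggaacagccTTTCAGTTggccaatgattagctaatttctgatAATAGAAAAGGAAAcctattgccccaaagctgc
*Ncf1* (chr5:134229626-134229875 on the minus strand): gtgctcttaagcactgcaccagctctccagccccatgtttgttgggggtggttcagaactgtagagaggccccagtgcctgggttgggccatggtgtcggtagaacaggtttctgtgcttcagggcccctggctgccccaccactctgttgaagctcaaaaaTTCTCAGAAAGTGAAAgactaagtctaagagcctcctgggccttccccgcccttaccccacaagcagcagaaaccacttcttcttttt
*Sod2* (chr17:13007589-13007838 on the plus strand): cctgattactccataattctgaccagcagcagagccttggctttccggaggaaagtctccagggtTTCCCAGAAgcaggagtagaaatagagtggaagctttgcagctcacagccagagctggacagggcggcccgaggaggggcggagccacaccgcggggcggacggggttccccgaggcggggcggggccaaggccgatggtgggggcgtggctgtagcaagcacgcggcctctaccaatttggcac

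*Cybb* held 5 matches to AANNGAAA, which begin 168, 124, 66, 33 and 27 bases before the gene start, the last pair overlapping. *Ncf1* held 1 match to TTCNNNGAA, 88 bases before the start, and 1 to AANNGAAA, 80 bases before it, which overlap by a single base. *Sod2* held 1 match to TTCNNNGAA, 185 bases before the start. Of 32851 mouse promoters of the same length, 21.3% held AANNGAAA and 7.02% held TTCNNNGAA. The promoters of *Cyba*, *Sod1* and *Cat* held neither set of letters. The PU.1 core GAGGAA, searched on both strands as well, was found in *Sod2* and *Cat* and in 23.3% of all promoters, and the Sp1 core GGGCGG in all 6 except *Cybb* and in 32.7% of all promoters. G and C made up 34.0% of the *Cybb* promoter, against 54.4 to 66.4% of the other promoters searched. The shares over all promoters were not matched for base composition. These are letter matches and not measured binding.

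Classical activation with LPS and IFN-γ changed 4 of the 8 genes against M0. *Sod2*, *Rac2* and *Ncf1* rose and *Sod1* fell (edgeR's quasi-likelihood test, Benjamini-Hochberg adjusted p below 0.05 and absolute log2 fold change above 0.5, the definition of a DEG used throughout). Across all genes tested, 14.1% were DEGs in this comparison, 9.7% higher and 4.37% lower in M1. Libraries of the groups did not overlap for 6 of the 8 genes, against 32.2% of all genes. The median log2 fold change of the 8 was 0.42, against -0.01 for all genes.

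*Sod2*, the mitochondrial dismutase, had the smallest p of the 8. It was 137, 144 and 150.3 CPM in the 3 M0 libraries and 517, 523 and 523 CPM in the 3 M1 libraries. The M1 libraries lay close together and far above every other library in the series. The level was 3.63-fold higher, a log2 fold change of 1.86 ± 0.13 (SE, n = 3 per group, adjusted p = 3.88e-07 by edgeR).

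*Rac2*, the GTPase that completes the active oxidase, was 108, 229 and 174 CPM in M0 and 387, 658 and 721 CPM in M1. All M1 libraries exceeded all M0 libraries, though both groups were spread widely, with coefficients of variation of 35.6% and 30.1%. The log2 fold change was 1.79 ± 0.28 (SE, adjusted p = 0.000802 by edgeR), or 3.45-fold.

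*Ncf1*, the organizer subunit that is phosphorylated on activation, was 75.8, 62.9 and 68.7 CPM in M0 and 98.3, 116 and 113 CPM in M1. The groups did not overlap, but the difference was smaller, 1.58-fold (log2 fold change 0.66 ± 0.17, SE, adjusted p = 0.0216 by edgeR). The call was lost on leaving out M0 replicate 2, M0 replicate 3, M1 replicate 2 or M1 replicate 3 (adjusted p 0.0617 to 0.0848), and with no filter on low counts (adjusted p = 0.121).

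*Sod1* went the other way from *Sod2*. It was 5117, 3734 and 3999.7 CPM in M0 and 2726, 2612 and 2423 CPM in M1. Every M1 library was below every M0 library, and the log2 fold change was -0.73 ± 0.15 (SE, adjusted p = 0.00558 by edgeR), 1.66-fold lower.

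The other 4 genes were not DEGs. *Cat* was 31.5, 33.8 and 40.2 CPM in M0 and 54.7, 61.2 and 62.0 CPM in M1, without overlap, and its log2 fold change of 0.76 ± 0.27 (SE) had an adjusted p of 0.076. *Cat* was called without CaP replicate 1 (adjusted p = 0.00732), the library with the lowest *Cat* level of all at 20.6 CPM, and also in a model of the 6 compared libraries. *Cyba* was 1616 ± 215 CPM (SD, n = 3) in M0 and 1199.7 ± 54.4 CPM in M1, also without overlap, with an adjusted p of 0.1. The membrane subunit *Cybb* varied most between M1 libraries, at 870.3, 486 and 478 CPM against 691, 366 and 576 CPM in M0. Its groups overlapped, with a log2 fold change of 0.17 (95% interval -0.41 to 0.75). *Ncf4*, which binds phosphoinositides on the phagosome, had a log2 fold change of 0.13 (95% interval -0.22 to 0.48).

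**Figure D1:**
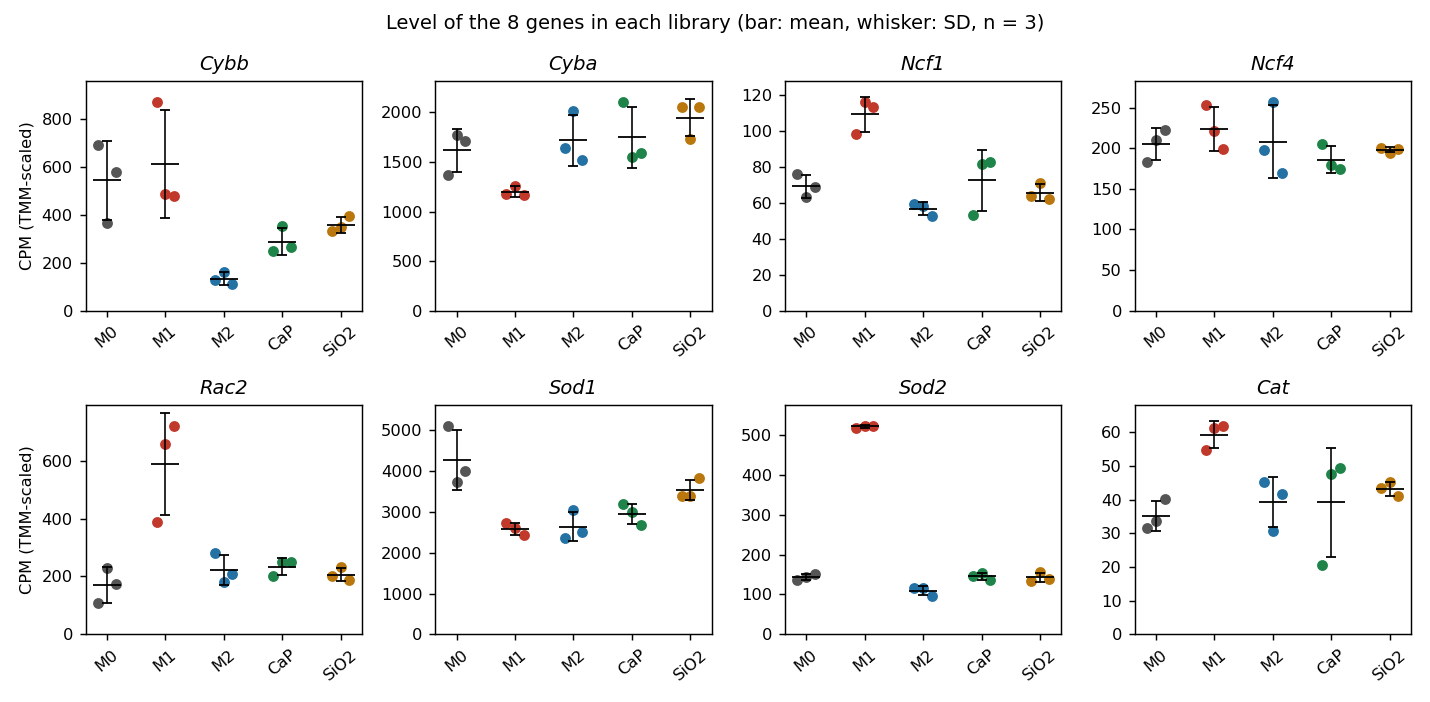
Level of each of the 8 genes in every library, in CPM on a linear axis from 0, with 1 point per library and the mean and SD of 3 libraries in black. *Sod2* and *Rac2* stand above the other groups in M1, *Cybb* is lowest in M2, and *Sod1* is highest in M0.

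With IL-4, 2 of the 8 genes were DEGs against M0, *Cybb* and *Sod1*, both lower. The background was 4.13% of genes, 2.13% lower in M2. Libraries did not overlap for 4 of the 8 (*Cybb*, *Ncf1*, *Sod1* and *Sod2*), against 15.2% of all genes, and the median log2 fold change was -0.13, against 0.07 for all genes.

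*Cybb* was 127, 163 and 109 CPM in M2, against 366 to 691 CPM in M0. All M2 libraries were below every other library of the series. The level was 4.1-fold lower, a log2 fold change of -2.04 ± 0.28 (SE, n = 3 per group, adjusted p = 0.000805 by edgeR). The summed macrophage marker level moved in the same direction, at 1435 to 2182 CPM in M2 against 2674 to 3615 CPM in M0. The single markers did not move together. *Lyz2* was 368 ± 61.3 CPM (SD) in M2 against 1847 ± 376 CPM in M0, *Csf1r* was 159.6 ± 30.9 against 165 ± 37.6 CPM, and *Cd68* was 954 ± 332 against 979 ± 107 CPM. *Adgre1* was higher in M2, at 195 ± 50.8 against 61.8 ± 17.0 CPM, as was *Mrc1*, at 27.6 ± 2.67 against 1.85 ± 0.591 CPM. The part of marker levels in the *Cybb* result was not tested.

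*Sod1* was 2358, 3055 and 2512 CPM in M2, below all M0 libraries, with a log2 fold change of -0.70 ± 0.15 (SE, adjusted p = 0.0192 by edgeR). The call did not survive leaving out M0 replicate 1, M2 replicate 1 or M2 replicate 3 (adjusted p 0.0747 to 0.0808), nor a model of the 6 compared libraries (adjusted p = 0.353). *Sod2* was 115, 117 and 96.4 CPM, under the M0 libraries, and its log2 fold change of -0.39 (95% interval -0.66 to -0.13) had an adjusted p of 0.105. The remaining 5 genes had log2 fold changes between -0.29 (*Ncf1*) and 0.39 (*Rac2*), and their 95% intervals all held 0.

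Set directly against each other, M1 and M2 differed in 5 of the 8 genes, against 16.1% of all genes, 10.6% higher and 5.46% lower in M1. *Sod2*, *Cybb*, *Rac2* and *Ncf1* were higher in M1 and *Cyba* was lower, and libraries did not overlap for 6 of the 8, against 29.4% of all genes. *Sod2* was 4.77-fold higher (log2 fold change 2.26 ± 0.13, SE, adjusted p = 4.54e-08 by edgeR) and *Cybb* 4.6-fold higher (2.20 ± 0.28, adjusted p = 9.32e-05). *Rac2* was 2.64-fold and *Ncf1* 1.93-fold higher. The *Cyba* call was weak, with a log2 fold change of -0.52 ± 0.16 (SE, adjusted p = 0.0447), and was kept in 5 of 15 fits that left out 1 library and in 4 of 9 other settings.

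Neither microrod changed any of the 8 genes past the DEG definition against M0. Against M1, 5 of 8 genes were DEGs with CaP and 4 of 8 with SiO2, where 12.7% and 10.5% of all genes were. *Rac2*, *Sod2* and *Ncf1* were lower than in M1 with both particles, *Cyba* was higher with both, and *Cybb* was lower with CaP. The *Rac2* and *Sod2* calls were kept in all 15 fits that left out 1 library, while *Cyba* with CaP (log2 fold change 0.54, adjusted p = 0.0431 by edgeR) was kept in 5 and with SiO2 (0.70, adjusted p = 0.0136) in 12. *Ncf1* was kept in 8 with CaP and in 11 with SiO2, and *Cybb* with CaP in 12. In CaP against M0, 0 of 8 were DEGs by edgeR, 2 had an unadjusted p below 0.05, and DESeq2 called 1 (*Sod1*). All-gene backgrounds were 0.654% by edgeR, 15.8% for an unadjusted p below 0.05 and 2.48% by DESeq2. In SiO2 against M0, 0 of 8 were DEGs by edgeR, 1 had an unadjusted p below 0.05 (*Cybb*), and DESeq2 called 0. The backgrounds were 0.264%, 8.17% and 0.763%. Both comparisons use the same 3 M0 libraries, so their values are given side by side and are not independent.

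The largest differences from M0 were in *Cybb*. It was 249, 351 and 264 CPM with CaP and 330, 348 and 393 CPM with SiO2, against 691, 366 and 576 CPM in M0. The CaP libraries lay just below the lowest M0 library, and the SiO2 libraries overlapped M0. The log2 fold change was -0.92 (95% interval -1.5 to -0.33, adjusted p = 0.141 by edgeR) for CaP and -0.61 (95% interval -1.19 to -0.03, adjusted p = 0.582) for SiO2. By DESeq2 the adjusted p was 0.0546 for CaP and 0.547 for SiO2. Without a filter on low counts, *Cybb* was called for CaP (adjusted p = 0.00358).

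*Sod1* was 3187, 2992 and 2691 CPM with CaP and 3393, 3387 and 3822 CPM with SiO2. The CaP libraries were below all M0 libraries, while 1 SiO2 library exceeded the lowest M0 library. The log2 fold change was -0.53 (95% interval -0.86 to -0.21, adjusted p = 0.13 by edgeR and 0.0472 by DESeq2) for CaP and -0.28 (95% interval -0.6 to 0.05) for SiO2. *Cybb* and *Sod1* were the 2 of 8 genes without overlap in CaP against M0, where 17.4% of all genes did not overlap. For SiO2 the single gene without overlap was *Cat*, at 43.4, 45.2 and 41.0 CPM against at most 40.2 CPM in M0, on a background of 18.0%.

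*Sod2* with either particle was close to its M0 level. It was 145, 154 and 137 CPM with CaP and 134, 155 and 139 CPM with SiO2. The log2 fold change was 0.02 (95% interval -0.25 to 0.28) for CaP and -0.01 (95% interval -0.28 to 0.26) for SiO2, both ending well below the M1 value of 1.86. *Rac2* was 234 ± 28.9 CPM (SD) with CaP and 206 ± 23.2 CPM with SiO2, and its log2 fold changes of 0.46 (95% interval -0.14 to 1.05) and 0.28 (95% interval -0.32 to 0.87) lay below the M1 value of 1.79.

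CaP replicate 1 stood apart from the other 2 CaP libraries in several genes. It had 20.6 CPM of *Cat* against 47.7 and 49.3 CPM, 52.9 CPM of *Ncf1* against 81.7 and 82.6 CPM, and 2106 CPM of *Cyba* against 1549 and 1595 CPM. Without it, as with it, none of the 8 genes was a DEG in CaP against M0. M0 replicate 1 had the highest M0 levels of *Cybb* (691 CPM) and *Sod1* (5117 CPM). It had the lowest M0 levels of *Rac2* (108 CPM) and *Cyba* (1370.2 CPM). Without M0 replicate 1, 0.176% of all genes were DEGs in CaP against M0, against 0.654% with it. Over all 15 fits that left out 1 library, log2 fold changes in CaP against M0 were -1.14 to -0.74 for *Cybb* and -0.62 to -0.41 for *Sod1*.

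Between the 2 particles, 0 of 8 genes were DEGs by edgeR, 0 had an unadjusted p below 0.05 and DESeq2 called 0. Of all genes, 0.018% were DEGs by edgeR, 1.66% had an unadjusted p below 0.05 and 0.0517% were DEGs by DESeq2. Only *Sod1* had libraries that did not overlap, lower with CaP, against 8.1% of all genes, with a log2 fold change of -0.26 (95% interval -0.58 to 0.07). The interval was widest for *Rac2* (-0.41 to 0.77), *Cybb* (-0.89 to 0.27) and *Cat* (-0.71 to 0.43) and narrowest for *Sod2* (-0.24 to 0.29). A missed threshold does not show that the particles act alike, and differences inside these intervals were not excluded.

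**Figure D2:**
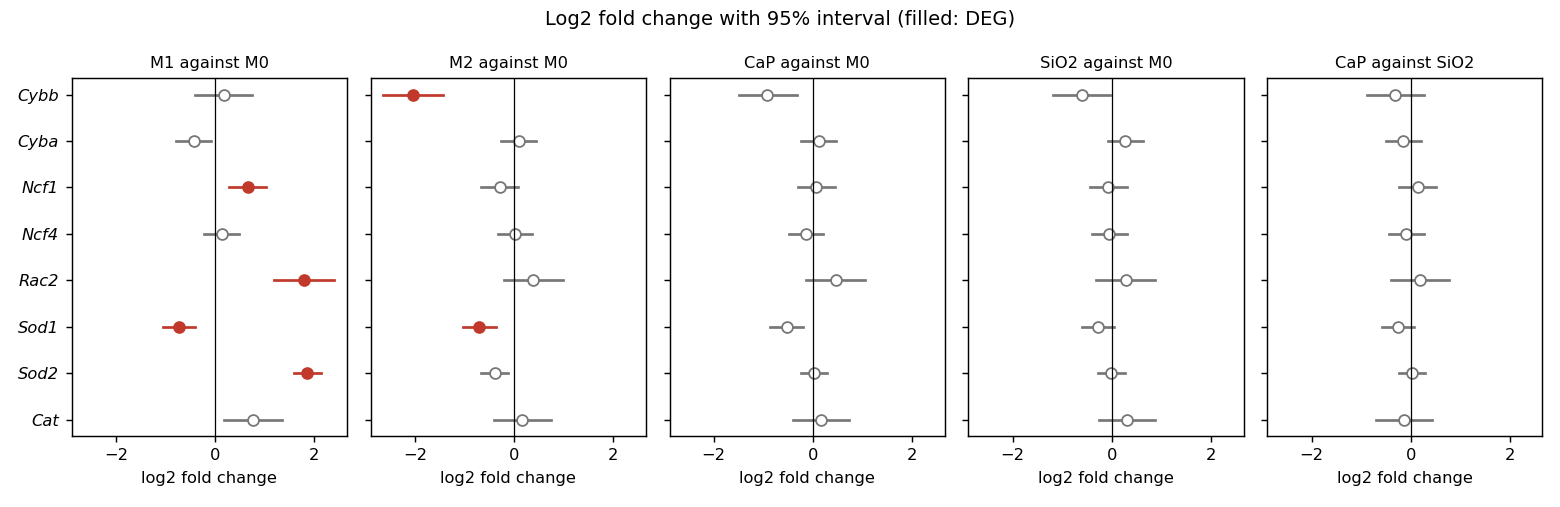
Log2 fold change of each gene (rows) with its 95% interval in 5 comparisons (columns), filled red where the gene was a DEG. DEGs appear in M1 (4 genes) and M2 (2 genes) against M0 and in none of the 3 microrod comparisons, where *Cybb* and *Sod1* sit furthest below 0 against M0.

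Ordered by level, *Sod2*, *Rac2* and *Ncf1* had M1 on top, each separated from the next group, CaP, a comparison in which 12.7% of all genes were DEGs. The step was 1.84 on the log2 scale for *Sod2* (adjusted p = 3.51e-07), 1.33 for *Rac2* (adjusted p = 0.00579) and 0.60 for *Ncf1* (adjusted p = 0.0371, all edgeR). The *Ncf1* step was lost without CaP replicate 1, among others, and was kept in 8 of 15 fits that left out 1 library. Below M1, no neighbouring groups of these 3 genes differed past the threshold.

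For *Cybb* the order was M1, M0, SiO2, CaP and M2, and only the last step, CaP over M2, passed (log2 fold change 1.12, adjusted p = 0.032 by edgeR, and 0.0533 with the replicate number as a block), in a comparison where 4.46% of all genes were DEGs. This call was also lost on leaving out M2 replicate 1, M2 replicate 3, CaP replicate 2 or CaP replicate 3 (adjusted p up to 0.136) and in a model of the 6 compared libraries. SiO2 and M2 are not neighbours in this order. *Cybb* was a DEG between them (log2 fold change 1.43, adjusted p = 0.00818 by edgeR), where 3.65% of all genes were. That call was kept in 14 of 15 fits that left out 1 library. For *Sod1* the order was M0, SiO2, CaP, M2 and M1, and no step between neighbours passed. For *Cyba*, *Ncf4* and *Cat* no step passed either. *Ncf4* was the flattest of the 8, with group means from 186 CPM (CaP) to 224 CPM (M1) and every pair of neighbours overlapping.

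Ratios of counts within a library do not depend on scaling between libraries. *Sod2* counts were 2.67 to 3.85% of *Sod1* counts in M0 and 19.0 to 21.6% in M1. In the other groups the ratio was 3.83 to 4.86% (M2), 4.55 to 5.14% (CaP) and 3.65 to 4.58% (SiO2). M1 thus lay apart from all other libraries, the CaP libraries lay above all M0 libraries, and the SiO2 libraries overlapped M0.

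*Cybb* counts were 7.18 to 8.1% of *Cyba* counts in M2, a narrow range below every other library. They were 20.7 to 50.4% in M0, 38.5 to 74.2% in M1, 11.8 to 22.7% with CaP and 16.1 to 20.1% with SiO2. The SiO2 libraries thus lay under the M0 range and the CaP libraries overlapped its lower end. With 3 against 3 libraries an exact permutation test cannot give a p below 0.1, so these ratios are given as a description.

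**Figure D3:**
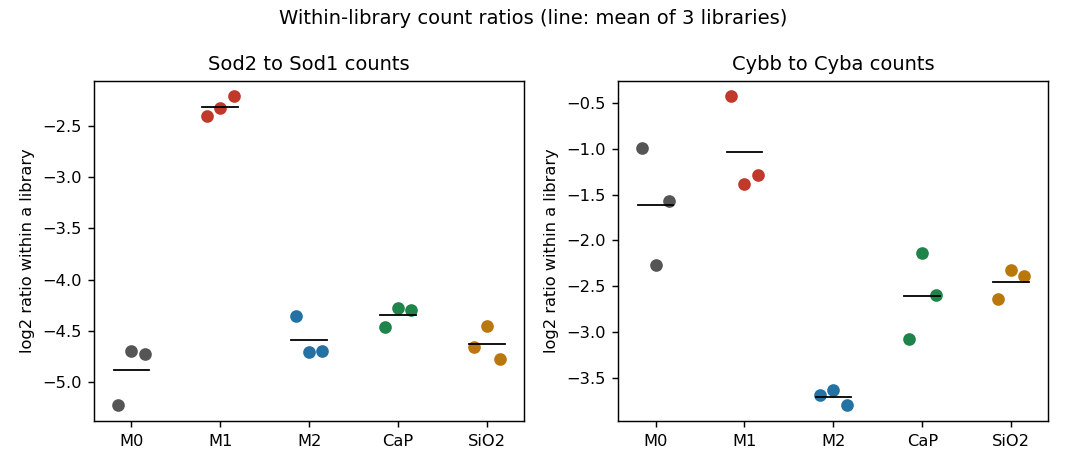
Log2 ratio of *Sod2* to *Sod1* counts (left) and of *Cybb* to *Cyba* counts (right) in each library, with 1 point per library and a line at the mean of 3. M1 stands alone at the top on the left (mean -2.31 against -4.89 in M0), and M2 alone at the bottom on the right (mean -3.71 against -1.61 in M0).

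The oxidase partners and regulators, were a list of 13 genes of which 10 were tested. In M1 against M0, 1 of 10 was a DEG, where 14.1% of all genes were, the kinase *Pak1*, which fell from 38.4 ± 3.48 to 25.0 ± 4.17 CPM (SD, log2 fold change -0.61, adjusted p = 0.0307 by edgeR). In M2 against M0, 2 of 10 rose, where 4.13% of all genes were DEGs in either direction. The kinase *Prkcd*, which phosphorylates p47phox, went from 44.7 ± 6.92 to 96.6 ± 26.6 CPM (log2 fold change 1.12, adjusted p = 0.0314 by edgeR). The proton channel *Hvcn1* was also called but was low throughout, with a mean of 1.65 CPM in M2 and 0.108 CPM in M0. In the 3 microrod comparisons 0 of 10 were DEGs by edgeR or DESeq2. An unadjusted p below 0.05 was seen for 1 gene in CaP against M0 (15.8% of all genes). It was seen for 0 in SiO2 against M0 (8.17%) and 0 in CaP against SiO2 (1.66%). The list's median log2 fold change was 0.01 in M1 and 0.21 in M2 against M0.

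The non-phagocyte oxidases were at or near 0 counts. None of 9 genes of the NOX1, NOX3, NOX4 and DUOX systems passed the filter, and the highest count of any in a library was 5. *S100a9* had no counts and *S100a8* at most 19.

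Of the other superoxide and peroxide removal genes, 14 of 16 were tested. Extracellular *Sod3* had no counts in any library. In M1 against M0, 5 of 14 were DEGs higher in M1 and 0 were DEGs lower, where 9.7% of all genes were higher and 4.37% lower. All 5 encode peroxiredoxins or enzymes that regenerate them. *Prdx5* rose most, from 279.7 ± 45.3 to 654 ± 43.3 CPM (SD, log2 fold change 1.23, adjusted p = 0.000118 by edgeR). *Srxn1*, which repairs over-oxidized peroxiredoxin, rose by 0.85, *Txnrd1*, which reduces thioredoxin, by 0.83, and *Prdx1* by 0.82 on the log2 scale. *Prdx3* was the fifth. *Prdx4* was lower, with an adjusted p of 0.041 by edgeR, but its log2 fold change of -0.46 missed the minimum of 0.5.

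In M2 against M0, 0 of 14 were DEGs by edgeR or DESeq2, and 3 had an unadjusted p below 0.05, against 17.2% of all genes. In M1 against M2, 5 of 14 were higher in M1 and *Prdx4* was lower, where 10.6% of all genes were higher and 5.46% lower. With the microrods 0 of 14 were DEGs by edgeR or DESeq2 in any of the 3 comparisons. An unadjusted p below 0.05 was seen for 2 genes with CaP, 3 with SiO2 and 0 between the particles. The all-gene shares at that p were 15.8%, 8.17% and 1.66%. The list's median log2 fold changes against M0 were 0.17 (M1), 0.09 (M2), 0.18 (CaP) and 0.12 (SiO2).

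**Figure D4:**
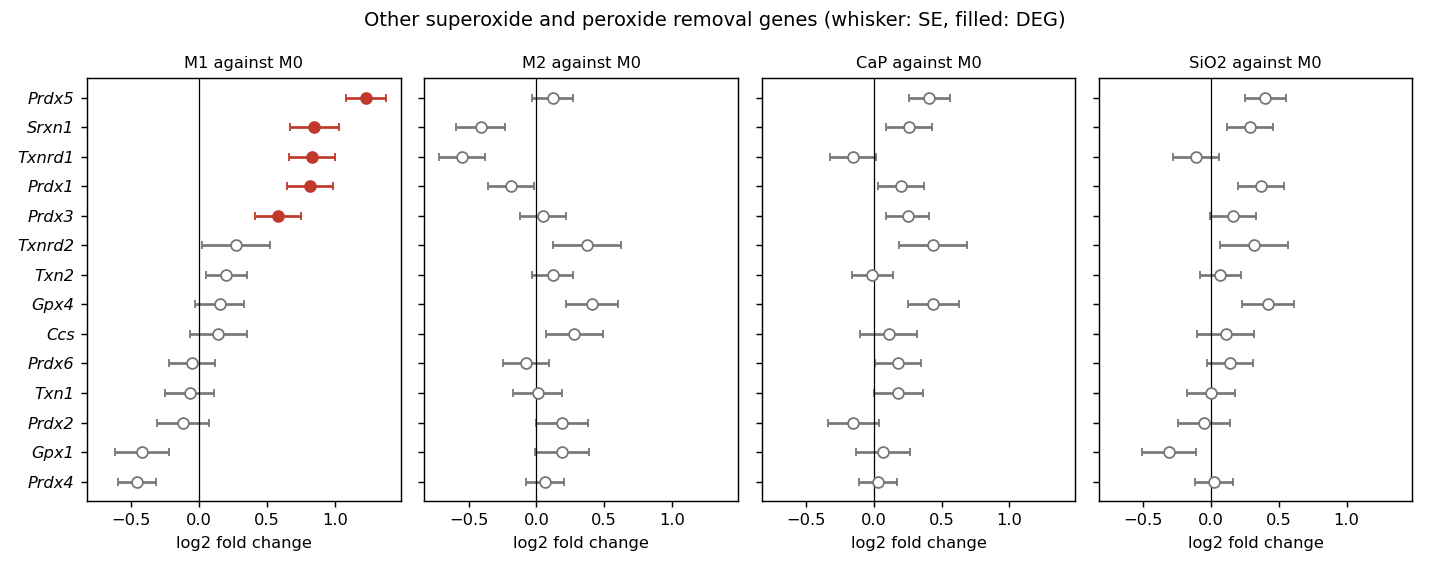
Log2 fold change with SE of 14 other superoxide and peroxide removal genes (rows) in 4 comparisons with M0 (columns), filled red where the gene was a DEG. The 5 filled points, from *Prdx5* at 1.23 down to *Prdx3* at 0.58, are all in M1.

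Levels of different genes were compared only per kilobase of transcript, scaled to the same total in every library. In M0, on that scale, *Cyba* was the highest oxidase gene at 2852 ± 465 (SD, n = 3), followed by *Ncf4* (158 ± 24.5), *Cybb* (129 ± 41.6), *Rac2* (62.9 ± 21.5) and *Ncf1* (28.6 ± 3.48). The *Ncf4* and *Cybb* values overlapped within 1 SD. Of the removal enzymes *Cat* was at 15.2 ± 3.07. The other two depend on the transcript length taken. *Sod1* was at 7505 ± 1267 with a transcript of 641 bases and at 1462 ± 245, below *Cyba*, with its longest of 3970 bases. *Sod2* was at 359 ± 41.3 with 451 bases and at 33.4 ± 4.48 with 5861 bases.

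The genes whose log2 CPM followed each member most closely over the 15 libraries were listed as a description, since libraries share groups and depth. For *Sod2* they were *Klra2* (r = 0.991), *Fam49a* (0.988) and *Aoah* (0.981), and for *Rac2* *Slc3a2* (0.988), *Adora2b* (0.981) and *Pim2* (0.978). For *Cybb* they were *Ptafr* (0.963), *Sltm* (0.947) and *Runx2* (0.941). For *Ncf1* they were *Nrp2* (0.944), *Tnfrsf10b* (0.944) and *Rbpj* (0.943), and for *Ncf4* *Glo1* (0.961), *Surf1* (0.948) and *Coa7* (0.945). For *Cyba* they were *Ift22* (0.936), *Polr2e* (0.935) and *Tmem107* (0.919), for *Sod1* *C5ar2* (0.936), *Mef2a* (0.932) and *Ssbp3* (0.929), and for *Cat* *Psmd2* (0.955), *Tars* (0.945) and *Poglut1* (0.941).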

How the data were processed

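The authors made Smart-seq2 libraries, processed paired-end reads with nf-core/rnaseq (STAR and Salmon, Ensembl annotation, GRCm39) and deposited 1 table of unnormalized whole-number counts per Ensembl gene identifier. Salmon estimates counts, so these may be rounded estimates, and reads of near-identical genes were split by that step. All columns were mapped to samples by name. Symbols and transcript lengths came from a GRCm38 annotation and matched 51487 of 78317 identifiers.

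Counts of all 15 libraries were filtered with filterByExpr, scaled with TMM and tested in R 4.3.3 with edgeR 4.0.16 (quasi-likelihood test, Benjamini-Hochberg adjustment over 16654 genes, no replicate term, the newer quasi-likelihood estimate). The DEG definition joined an adjusted p under 0.05 with a log2 fold change beyond 0.5 in either direction. CPM are counts relative to the TMM-scaled library size, and intervals are 95%. The scripts were tested on simulated data. Alternatives were DESeq2 1.42.0, its size factors in edgeR, other filters, a replicate block, fewer libraries, thinning to the smallest library, no fold minimum, the older quasi-likelihood estimate (added after the data were seen) and leaving out each library. Depth, 8459643 to 68750050 counts, limits low genes most. Counts are of amplified cDNA, and libraries of a group differed by more than counting error (chi-square per gene 6.91 to 135 between pairs). The edgeR test estimates this spread between libraries.

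The 8 genes and the lists were chosen with earlier results of these data known. Named genes were all 8 members, at most 4 called genes of each list per comparison with at least 5 CPM in 1 group (the largest changes), and for each member the 3 genes with the highest Pearson correlation of log2 CPM among those with a symbol and a mean of at least 5 CPM. *Hvcn1*, *Prdx3*, *Prdx4*, *Sod3*, *S100a8* and *S100a9* were named outside that rule after their values were seen.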

Additional observations from a re-analysis of the deposited data

How the results depend on the processing

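Of 1944 results of the 8 genes over all comparisons and alternatives, 1869 kept their side of the threshold, 66 lost a call, 9 gained one and 0 called results changed sign. Of the 1869, 36 that were uncalled either way had the other sign. The number of the 8 genes called in CaP against M0 was 1 with DESeq2 and 1 with no filter on low counts. The all-gene shares there were 2.48% and 1.84%. In M2 against M0 the number was 1 with the 6 compared libraries only (0.635% of all genes). It was 1 to 2 on leaving out single libraries (1.85 to 7.95%). The oxidase partners called in M1 against M2 fell from 2 of 10 to 1 of 10 with DESeq2. All-gene shares were 16.1% by edgeR and 14.6% by DESeq2. With the longest transcript of every gene, levels per kilobase in M0 were 32.6 for *Ncf1*, 191 for *Ncf4*, 1462 for *Sod1*, 33.4 for *Sod2* and 18.4 for *Cat*. *Ncf4* (1464 bases) and *Cat* (2613 bases) had the same length either way. Their values moved only through the scaling to the same total. The causes of the differences in calls were not tested.

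The sample labels do not say whether replicate numbers pair the samples. Deviations of same-numbered libraries correlated above 0.1 in 14 of 30 pairs, against 24 of 60 pairs with different numbers. With 3 libraries per group these shares cannot show whether a pairing was present or absent. With the replicate number as a block, 4 genes were called in M1 against M0, 2 in M2 against M0, 4 in M1 against M2 and 0 in each of the 3 microrod comparisons. The calls lost under the block were *Cyba* in M1 against M2 and in CaP against M1, *Ncf1* in CaP against M1 and *Cybb* in CaP against M2.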
